A study of Homo sapiens with 12 samples.

Results

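The response to DdBIC that remains when hemin is present was examined in A375, a human melanoma cell line long kept in culture. DdBIC (dodecyl 1H-benzo[d]imidazole-5-carboxylate, written DBIC in the labels) is a synthetic compound that binds the orphan nuclear receptor Nur77, and hemin is an oxidised, iron-containing form of heme that cells take up. The series holds 12 RNA-seq libraries from wild-type cells in 4 groups of 3, namely untreated cells (Ctrl), cells given DBIC, cells given Hemin and cells given DBIC+Hemin. The 6 libraries compared here are the 3 of DBIC+Hemin and the 3 of Hemin, so that hemin is common to both groups and the labels differ only in DdBIC. The study lowered the serum in the medium during DdBIC treatment, and whether cells given Hemin alone or left untreated had the same serum is not given in the sources used here. The doses and durations used for RNA-seq are not given in the sources used here, and the labels do not say whether the 3 libraries of a group came from separate cultures, so p-values measure the spread between these libraries. The effect without hemin (DBIC against Ctrl) comes from the other 6 libraries, shares none with the comparison described here and was used to find where the response differs.

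Heme is both a cofactor and a signal. It represses ALAS1, the rate-limiting enzyme of its own synthesis, and induces HMOX1, the heme oxygenase that breaks it down, by displacing the repressor BACH1. Stress on the endoplasmic reticulum (ER), on mitochondria or on amino acid supply converges on eIF2α and the transcription factor ATF4 in the integrated stress response, while the MAP kinases drive immediate early genes such as FOS, JUN, EGR1 and NR4A1 (the gene of Nur77). The sterol-sensing factors SREBF1 and SREBF2 drive the genes of fatty acid and cholesterol synthesis.

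The 6 libraries held 37951275 to 44358912 counts each, and replicate libraries correlated with an r of at least 0.993 across genes (log2 CPM). No libraries held identical counts. Of 12 markers of the line, 8 were above a mean of 1 CPM (counts scaled to a common library size), with PRAME at 121 to 133 CPM in these libraries, while the pigment genes MLANA, PMEL, TYR and DCT were near 0, and PTPRC and HBB, markers of blood cells, were at 0. Summed over 5 markers, the blood list reached 0.607 to 0.915 CPM in Hemin and 0.696 to 1.30 CPM in DBIC+Hemin. The sums in Hemin and DBIC+Hemin were 12.3 to 14.8 and 11.7 to 12.15 CPM for 3 fibroblast markers. They were 3.29 to 4.21 and 3.55 to 3.88 CPM for 4 epithelial markers, and 1.09 to 1.52 and 1.28 to 1.84 CPM for 3 endothelial markers. The share of counts from the mitochondrial genome was 3.08% to 3.43%. Reads were assigned to 20263 genes, of which 14287 passed the filter on low counts and were tested.

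In the presence of hemin, DdBIC changed 971 of the 14287 genes tested, or 6.8% (edgeR's quasi-likelihood test, adjusted p under 0.05). Of these, 530 were higher (3.71% of the genes tested) and 441 lower (3.09%). The changes were small, with a median size of 0.28 on the log2 scale among the called genes, 193 genes changed by at least 0.5 and 46 by at least 1, of which 33 were higher and 13 lower. With total counts in place of TMM factors as scaling, 421 genes were higher and 575 lower, so the balance of the directions depended on the scaling. The count rested partly on single libraries, as it was 621 without Hemin replicate 1, 625 without Hemin replicate 3 and 612 without DBIC+Hemin replicate 1, and it was 569 when only these 6 libraries were fitted. In bulk RNA, a smaller share of cells that respond and a weaker response in each cell cannot be told apart.

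Without hemin, DdBIC changed 5310 genes (37.2%), and the difference between the effects with and without hemin, tested as an interaction, was past the threshold in 2376 genes (16.6%). With upper-quartile scaling the share of higher genes moved from 53.8% to 39.95% without hemin and from 38.5% to 55.4% in the interaction. Of the 530 genes higher with hemin, 447 (84.3%) were also called higher without it, which was 15.6% of the 2859 genes called there. In these 447 genes the median log2 fold change was 0.30 with hemin and 0.56 without. Of the 441 genes lower with hemin, 317 (71.9%) were also called lower without it, which was 12.9% of 2451, with medians of -0.28 and -0.35.

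The difference itself sorted the 971 genes into classes. In 471 genes (48.5%) the effects had the same direction and the difference was not called. In 284 genes (29.2%) the effect had the same direction and was smaller with hemin, 214 of them higher and 70 lower. In 9 genes it was larger with hemin. A further 43 genes were called in opposite directions (13 higher and 30 lower with hemin), 66 were called with hemin only and with a called difference (31 higher, 35 lower), and 98 were called with hemin only while the difference was not. Genes chosen for a rise of at least 2-fold without hemin numbered 441, and their median log2 fold change went from 1.46 without hemin to 0.31 with it. Of these 441 genes, 363 were above 0 with hemin, 111 were called higher, and the difference was called in 285. Of all genes tested, 3.71% were called higher with hemin, and the difference was called in 16.6%. A fall of at least 2-fold without hemin was found in 61 genes, with medians of -1.19 without and -0.42 with hemin. Of these 61 genes, 53 were below 0 with hemin and 11 were called lower, beside 3.09% of all genes tested. The difference was called in 10 of the 61, close to the 16.6% of all genes tested. Both sets were chosen on the Ctrl and DBIC libraries that also enter the difference, so these counts are a description.

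**Figure D1:**
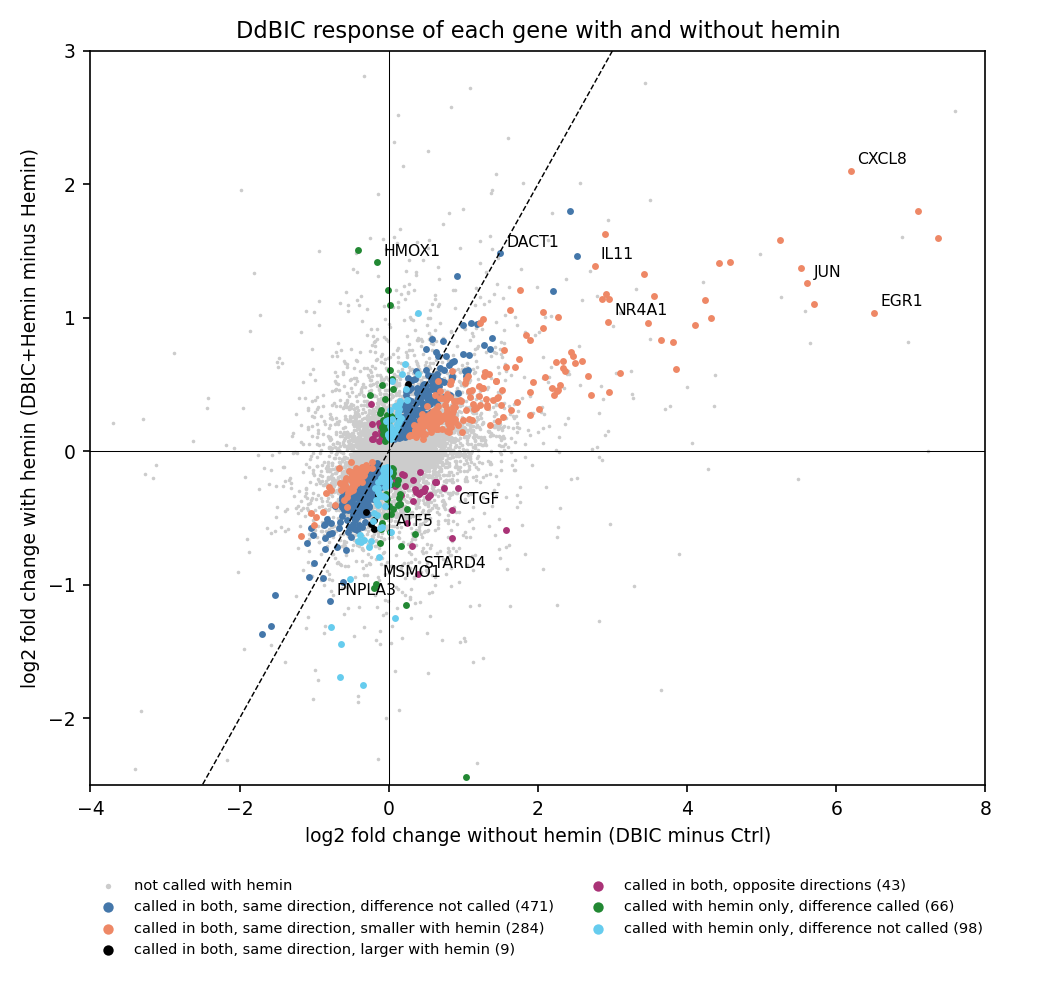
The log2 fold change of each tested gene with hemin (vertical) is plotted against that without hemin (horizontal), coloured by class, with the dashed line marking equal effects and 34 genes outside the axes. The strongest responders without hemin, such as CXCL8, EGR1 and JUN, lie far below the dashed line, while HMOX1 lies above 0 with hemin only and STARD4 and CTGF lie below 0 with hemin and above 0 without.

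Among called genes whose groups did not overlap and whose mean over these libraries reached 5 CPM, CXCL8 had the largest rise with hemin. CXCL8, a chemokine that draws neutrophils (ENSG00000169429, chromosome 4, 73740506 to 73743716 on GRCh38), stood at 5.44, 6.80 and 6.54 CPM in the 3 Hemin libraries and at 35.7, 20.3 and 24.7 CPM in the 3 DBIC+Hemin libraries. No overlap was a condition of this choice, and the highest DBIC+Hemin library was replicate 1. Its log2 fold change was 2.10 (standard error, SE, of 0.20, edgeR adjusted p = 0.00032), or 4.30-fold. Without hemin CXCL8 went from 9.15 ± 0.551 to 671 ± 63.2 CPM (SD, n = 3 each), and the difference of the log2 effects was -4.09 (edgeR adjusted p = 1.28e-05).

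DUSP10, a phosphatase that switches off JNK and p38, stood at 12.9, 13.4 and 12.5 CPM in Hemin and at 42.7, 34.0 and 43.1 CPM in DBIC+Hemin. Its log2 fold change of 1.62 (SE of 0.10) was the largest called in the list of MAP kinase feedback genes. IL11, a cytokine of the IL6 family, went from 22.3, 23.1 and 23.3 CPM to 63.8, 59.0 and 57.5 CPM, a log2 fold change of 1.39 (SE of 0.06). DBIC+Hemin replicate 2 was the lowest of its group for DUSP10. The effect without hemin was the larger one, at 2.89 for DUSP10 and 2.76 for IL11 (difference -1.27 and -1.37, edgeR adjusted p = 0.000105 and 1.99e-06).

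DACT1, an inhibitor of Wnt signalling, rose by nearly the same amount with and without hemin. It stood at 7.97, 8.14 and 8.13 CPM in Hemin and at 21.7, 24.4 and 21.6 CPM in DBIC+Hemin, a log2 fold change of 1.48 (SE of 0.07, edgeR adjusted p = 7.22e-07) beside 1.49 without hemin. The difference of the effects was -0.01 (SE of 0.09, edgeR adjusted p = 0.958). PTPRH, a receptor tyrosine phosphatase, rose by 1.06 with hemin and 1.62 without, where the difference of -0.56 was called (edgeR adjusted p = 0.00345). CREB5, a transcription factor of the CRE-binding family, rose by 1.18 with hemin, from 4.33 ± 0.757 to 9.77 ± 1.19 CPM (SD, n = 3 each), and by 2.91 without. TNFAIP3, the ubiquitin-editing brake on NF-κB, rose by 1.10, from 4.27 ± 0.441 to 9.19 ± 1.39 CPM (SD, n = 3 each), against 5.71 without hemin.

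Of 28 measured immediate early transcription factors, 17 were called higher with hemin and 0 lower (60.7%, beside 6.8% of all genes tested called and 3.71% called higher), and the other 11 did not pass the test. Their median log2 fold change was 0.60 with hemin and 2.19 without, beside -0.00 for all genes tested, and the difference was called in 24 of the 28 (beside 16.6% of all genes tested), each time toward a smaller effect with hemin. JUN, a subunit of AP-1, stood at 68.9, 68.0 and 65.6 CPM in Hemin and at 177, 148 and 159 CPM in DBIC+Hemin (log2 fold change 1.26, edgeR adjusted p = 4.05e-05). In the libraries without hemin it ran from 40.9 ± 1.57 to 1998 ± 262 CPM (SD, n = 3 each). EGR1, a zinc finger factor induced by ERK, stood at 23.9, 26.6 and 27.5 CPM in Hemin and at 50.4, 50.6 and 59.3 CPM in DBIC+Hemin, a log2 fold change of 1.04 where that without hemin was 6.51. EGR2, of the same family, was at 0.405 ± 0.113 and 1.42 ± 0.159 CPM (SD, n = 3 each), a low level at which it rose by 1.80. JUN was also higher in Hemin than in Ctrl, by 0.72 (edgeR adjusted p = 0.00225), while EGR1 and EGR2 were not called in that comparison.

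NR4A1, the gene of Nur77 itself, stood at 204, 183 and 212 CPM in Hemin and at 399, 387 and 389 CPM in DBIC+Hemin. The log2 fold change was 0.97 (SE of 0.05, edgeR adjusted p = 1.53e-06), and without hemin NR4A1 went from 204 ± 4.17 to 1565 ± 62.8 CPM (SD, n = 3 each), a log2 fold change of 2.94. The rises of FOS (3.48 ± 0.605 to 8.99 ± 1.85 CPM, log2 fold change 1.37) and ATF3 (9.87 ± 2.70 to 26.3 ± 0.413 CPM, log2 fold change 1.41, SD and n = 3 throughout) were less firm. Their edgeR adjusted p-values were 0.0362 and 0.0486. Leaving out 1 library at a time, the call on FOS was lost in 7 of 12 fits (adjusted p up to 0.123, without Hemin replicate 2) and that on ATF3 in 10 of 12 (up to 0.158, without Hemin replicate 3).

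**Figure D2:**
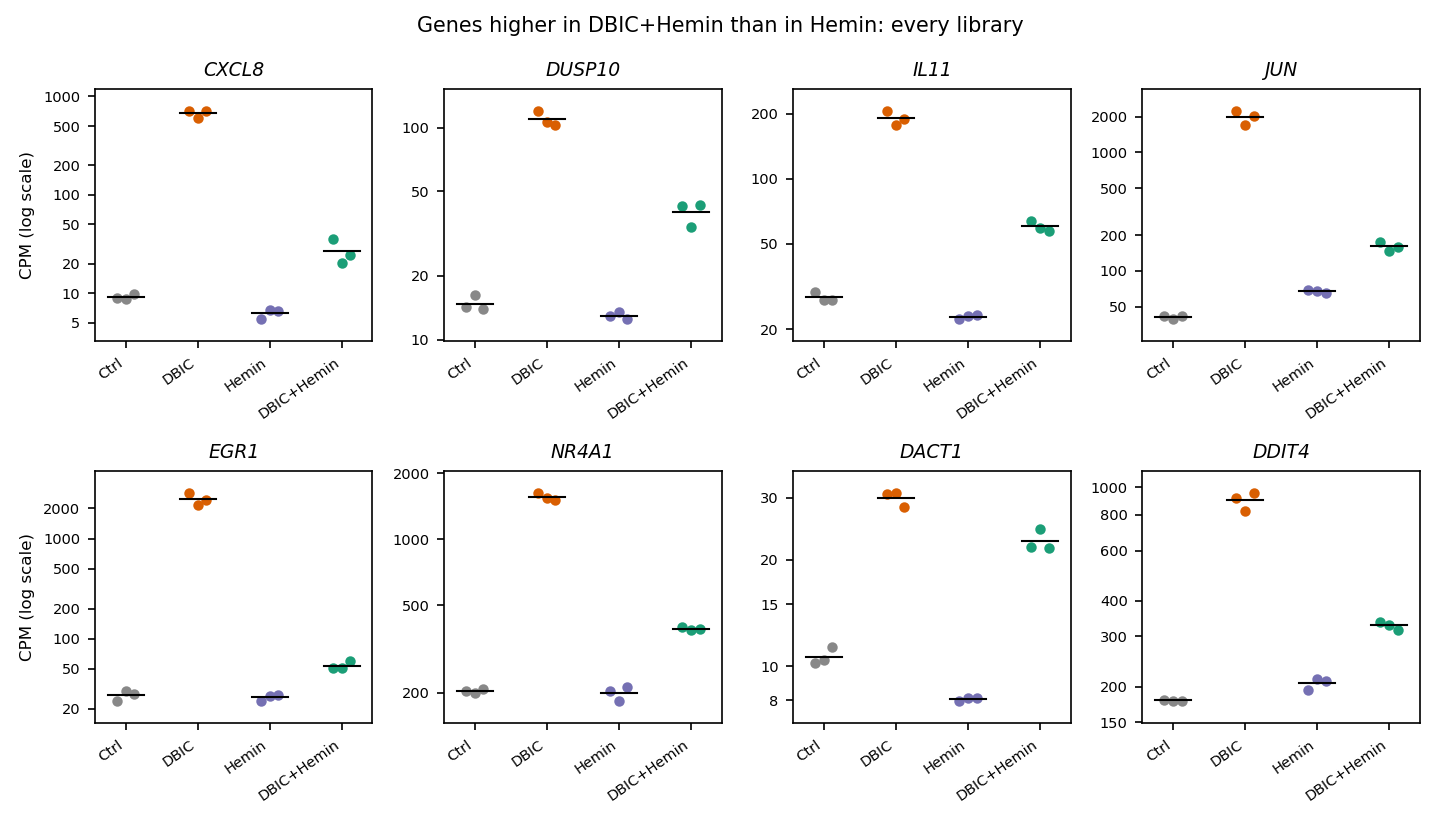
CPM on a log scale is shown for 8 genes in each of the 12 libraries, with points for libraries and black lines for the mean of each group of 3. In each panel the DBIC+Hemin points lie above the Hemin points, and the DBIC points lie higher still, least so for DACT1.

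Chemokine, cytokine and NF-κB genes gave 11 called higher and 0 lower of 23 measured (47.8%, beside 6.8% of all genes tested), with a median log2 fold change of 0.63 with hemin and 2.76 without. Besides CXCL8 and IL11, CXCL2, BIRC3 and IL6 had the largest called changes of the list, all from low levels. BIRC3, an inhibitor of apoptosis, stood at 1.04, 0.668 and 1.12 CPM in Hemin and at 2.89, 2.76 and 2.81 CPM in DBIC+Hemin, a log2 fold change of 1.58. CXCL2, a relative of CXCL8, was at 0.472 ± 0.199 and 1.44 ± 0.582 CPM and IL6 at 0.294 ± 0.162 and 0.795 ± 0.0226 CPM (SD, n = 3 each), with log2 fold changes of 1.60 and 1.42. In both genes the libraries of a single group spanned more than 1 on the log2 scale. Leaving out 1 library at a time, the call on CXCL2 was lost in 2 of 12 fits (edgeR adjusted p up to 0.0767, without Hemin replicate 2) and that on IL6 in 1 (0.0515, without Hemin replicate 3). Both calls were also lost when only the 6 libraries compared were fitted (edgeR adjusted p = 0.0851 and 0.102). IL6 shares 2.22% of its exon bases with STEAP1B on the opposite strand, which was at 15.3 CPM. CCL2, NFKBIE, IL1A and IL1B, called higher without hemin, did not pass the test with it, with log2 fold changes of -0.14, -0.17, 0.10 and 0.10.

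Feedback genes of ERK and the other MAP kinases gave 11 called higher and 1 lower of 22 measured (54.5%, beside the same 6.8%). After DUSP10, the largest called changes were in DUSP8 (1.14), another phosphatase of JNK and p38, ERRFI1 (0.83), an inhibitor of the EGF receptor, AREG (0.67), a ligand of that receptor, and DUSP5 (0.60), a nuclear phosphatase of ERK, in log2 fold change. ERRFI1 stood at 210, 219 and 218 CPM in Hemin and at 393, 388 and 370 CPM in DBIC+Hemin. The difference from the effect without hemin was called for each of these 4 genes, at -3.11, -1.06, -1.58 and -1.76 in that order. Over the list it was called in 14 of the 22 genes, beside 16.6% of all genes tested. AREG was also higher in Hemin than in Ctrl, by 0.77 (edgeR adjusted p = 0.00804), while DUSP8, ERRFI1 and DUSP5 were not called in that comparison. DUSP6, an ERK phosphatase, was at 197 and 148 CPM on average, and its log2 fold change of -0.41 did not pass the test (edgeR adjusted p = 0.273).

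Promoters of the genes called higher were read for short motifs, from 250 bases before to 50 after the RefSeq start (GRCh38.p14). Of the 530 genes 430 matched by symbol, with 599 windows, and of the 441 lower genes 328, with 518 windows. The CRE motif (TGACGTCA, its own reverse complement) was held by 6.18% of the windows of higher genes, 1.54% of those of lower genes, 2.53% of those of all genes tested and 1.85% of all 35116 windows. For the AARE motif bound by ATF4 and CHOP (TGATGNAA, either strand) the shares were 4.17%, 1.16%, 2.13% and 3.62%. The AP-1 motif (TGANTCA) was held by 6.01%, 5.79%, 5.53% and 7.71%, and the NBRE motif of Nur77 (AAAGGTCA) by 1%, 0%, 0.816% and 1.22%, in the same order. For the core shared by antioxidant and MAF elements (TGACNNNGC, which can start at the same bases as CRE and AP-1) they were 15.2%, 11%, 14.2% and 13.3%. The E-box (CACGTG) was held by 8.85%, 10.4%, 9.19% and 7.26%, the EGR site (GCGTGGGCG) by 1%, 1.35%, 1.15% and 0.795%, and a sterol element (TCACNCCAC, added after the values were seen) by 0.501%, 0.772%, 1.08% and 1.13%. These shares are a description with no test, and a match is not a site of binding.

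The 250 bases before the start are printed for 5 genes called higher, because they hold the AP-1 motif (CXCL8, IL11) or the CRE motif (PPP1R15A, AREG, DUSP8). Capitals mark the matches of the motifs searched, and the sequences run 5′ to 3′ on the strand of the gene. In CXCL8 the match spans bases 137 to 131 before the start, in IL11 bases 96 to 90, in PPP1R15A bases 58 to 51, in AREG bases 65 to 58, and in DUSP8 bases 118 to 111 and 74 to 67. PPP1R15A holds 2 further matches to the TGACNNNGC core.
CXCL8, chr4:73740319-73740568, plus strand: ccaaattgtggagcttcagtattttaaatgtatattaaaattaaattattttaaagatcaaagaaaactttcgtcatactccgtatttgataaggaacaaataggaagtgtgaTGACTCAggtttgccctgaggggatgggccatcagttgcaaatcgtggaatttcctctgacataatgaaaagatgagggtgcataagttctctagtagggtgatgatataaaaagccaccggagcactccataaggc
IL11, chr19:55370464-55370713, minus strand: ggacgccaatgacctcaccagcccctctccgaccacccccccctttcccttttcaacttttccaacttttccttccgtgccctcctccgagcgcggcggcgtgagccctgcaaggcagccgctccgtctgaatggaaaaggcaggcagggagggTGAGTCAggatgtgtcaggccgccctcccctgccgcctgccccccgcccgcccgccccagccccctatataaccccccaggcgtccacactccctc
PPP1R15A, chr19:48872171-48872420, plus strand: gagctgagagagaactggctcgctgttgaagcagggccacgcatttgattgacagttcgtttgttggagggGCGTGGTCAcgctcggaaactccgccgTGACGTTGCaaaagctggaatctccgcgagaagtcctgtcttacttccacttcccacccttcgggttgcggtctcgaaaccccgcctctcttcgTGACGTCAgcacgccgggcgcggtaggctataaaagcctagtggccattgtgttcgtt
AREG, chr4:74444886-74445135, plus strand: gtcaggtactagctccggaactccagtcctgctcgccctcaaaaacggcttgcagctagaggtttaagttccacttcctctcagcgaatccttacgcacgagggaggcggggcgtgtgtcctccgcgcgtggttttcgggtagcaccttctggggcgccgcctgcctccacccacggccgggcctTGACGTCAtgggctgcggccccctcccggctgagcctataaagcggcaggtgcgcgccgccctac
DUSP8, chr11:1572272-1572521, minus strand: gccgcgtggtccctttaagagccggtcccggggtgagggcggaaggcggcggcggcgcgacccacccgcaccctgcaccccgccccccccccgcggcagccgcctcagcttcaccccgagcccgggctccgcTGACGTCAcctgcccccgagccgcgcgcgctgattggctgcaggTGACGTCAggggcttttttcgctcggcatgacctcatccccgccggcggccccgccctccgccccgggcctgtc

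Of 17 measured factors of the integrated stress response linked to ATF4 and CHOP, 7 were called higher and 1 lower with hemin (47.1%, beside 6.8% of all genes tested) and 9 did not pass the test, with a median log2 fold change of 0.24 beside 0.90 without hemin. DDIT4, an inhibitor of mTORC1, stood at 195, 212 and 210 CPM in Hemin and at 337, 330 and 316 CPM in DBIC+Hemin, a log2 fold change of 0.67 (SE of 0.05, edgeR adjusted p = 2.42e-05). GDF15, a stress cytokine, went from 18.2 ± 2.18 to 32.8 ± 4.85 CPM (SD, n = 3 each), a log2 fold change of 0.85 beside 1.38 without hemin, and the difference was not called (edgeR adjusted p = 0.0542). PPP1R15A, the stress-induced subunit that restores eIF2α by dephosphorylation, rose by 0.50, and SESN2, a sestrin that restrains mTORC1, by 0.45. Both were called with a smaller effect with hemin, by -1.79 and -1.80. PPP1R15A, SESN2 and GDF15 were also higher in Hemin than in Ctrl, by 0.57, 0.76 and 0.70 (edgeR adjusted p up to 0.00819). That comparison shares the Hemin libraries with the rises given here, and DDIT4 was not called in it (edgeR adjusted p = 0.0544).

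ATF4 itself stood at 503, 521 and 507 CPM in Hemin and at 623, 597 and 634 CPM in DBIC+Hemin, a log2 fold change of 0.28 (SE of 0.03, edgeR adjusted p = 0.000333) beside 0.67 without hemin. DDIT3, the gene of CHOP, was at 18.5, 18.4 and 18.2 CPM and at 18.2, 26.2 and 28.0 CPM, where the groups overlap. Its log2 fold change of 0.40 did not pass the test (edgeR adjusted p = 0.466), and without hemin it was 3.27 (difference -2.88, edgeR adjusted p = 0.00081). DDIT3 shares 27.2% of its exon bases with MARS on the opposite strand. MARS was at 327 CPM where DDIT3 was at 18.4 and 24.2 CPM on average. Whether counting used strand is not given in the sources used here. EIF2AK3, the gene of the eIF2α kinase PERK, rose by 0.36 (16.1 ± 0.577 to 20.6 ± 1.54 CPM, SD, n = 3 each, edgeR adjusted p = 0.00502), and EIF2S1, the gene of eIF2α, was at 125 CPM in both groups. CHAC1 and TRIB3, targets of ATF4 and CHOP, had log2 fold changes of 0.63 and 0.06 and did not pass the test.

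The lower gene of that list was ATF5, a stress-regulated factor related to ATF4. It stood at 55.3, 60.5 and 54.3 CPM in Hemin and at 35.4, 39.9 and 36.4 CPM in DBIC+Hemin. The log2 fold change was -0.61 (SE of 0.05, edgeR adjusted p = 8.68e-05), while without hemin it was 0.01, and the difference of -0.62 was called (edgeR adjusted p = 0.000264). ATF5 shares 21.2% of its exon bases with NUP62 on the opposite strand, and NUP62 was at 149 CPM in Hemin and 143 CPM in DBIC+Hemin.

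ER chaperones and degradation factors gave 4 called higher and 0 lower of 24 measured (16.7%, beside 6.8% of all genes tested), with a median log2 fold change of 0.09 beside 0.31 without hemin. DNAJB9, a co-chaperone of the ER induced by XBP1, stood at 11.4, 11.5 and 11.5 CPM in Hemin and at 20.6, 17.4 and 19.4 CPM in DBIC+Hemin (log2 fold change 0.74, edgeR adjusted p = 4.8e-05). HERPUD1, of ER-associated degradation, rose by 0.46, MANF, a secreted ER stress factor, by 0.16, and ATF6, an ER stress sensor, by 0.11. The last 3 calls depended on single libraries. HERPUD1 lost its call in 5 of 12 fits that left out 1 library (edgeR adjusted p up to 0.0808, without DBIC+Hemin replicate 1), and MANF and ATF6 in 8 each (up to 0.135 and 0.110, without Hemin replicate 2). Both calls were also lost with the replicate block (0.0563 and 0.0762) and with total counts as scaling (0.0676 and 0.0788), and that on ATF6 with no filter on low counts (0.0567). HSPA5, the major chaperone of the ER, was at 1054 and 1195 CPM on average and did not pass the test (log2 fold change 0.18), whereas without hemin it rose by 1.60. With hemin HSPA5 was called when only the 6 libraries compared were fitted (edgeR adjusted p = 0.0144). It was also called without DBIC replicate 1 or 2 (0.0381 and 0.00615). Of 17 cytosolic heat shock chaperones 4 were called higher (23.5%, beside the same 6.8%), among them HSPA8 by 0.26 and the near-identical pair HSPA1A and HSPA1B by 0.45 and 0.43, which can share reads. HSP90AA1, also called higher, changed by 0.09 with hemin and by -0.22 without, and the difference was called (edgeR adjusted p = 9.01e-05). The call on HSPA1A was lost in 2 of 12 fits that left out 1 library (edgeR adjusted p up to 0.0548, without Hemin replicate 2). Those on HSPA1A and HSPA1B were lost when only the 6 libraries compared were fitted (0.0754 and 0.0668).

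The heme genes HMOX1 and ALAS1 had a larger effect with hemin than without it. HMOX1 (ENSG00000100292, chromosome 22, 35380361 to 35394214) stood at 62.2, 65.5 and 61.9 CPM in Hemin and at 188, 146 and 172 CPM in DBIC+Hemin. All DBIC+Hemin libraries lay far above each Hemin library, with a log2 fold change of 1.42 (SE of 0.09, edgeR adjusted p = 1.05e-05), or 2.67-fold. Without hemin HMOX1 was at 8.71 ± 0.631 CPM in Ctrl and 7.82 ± 0.795 CPM in DBIC (SD, n = 3 each), a log2 fold change of -0.16 that did not pass the test (edgeR adjusted p = 0.262). The difference of the effects was 1.57 (edgeR adjusted p = 2.23e-05). ALAS1 stood at 53.9, 52.6 and 52.9 CPM in Hemin and at 77.8, 71.5 and 76.6 CPM in DBIC+Hemin, a rise of 0.50 on the log2 scale. It was at 125 ± 2.12 CPM in Ctrl and 150 ± 2.24 CPM in DBIC (SD, n = 3 each), a smaller rise of 0.26, and the difference of 0.24 was called (edgeR adjusted p = 0.00656).

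The other 9 tested genes of heme synthesis did not pass the test, with log2 fold changes of -0.09 to 0.11. Of 14 genes of heme breakdown and transport 2 were called (14.3%, beside 6.8% of all genes tested), of which HMOX1 was higher and FLVCR1, a heme exporter, was lower by 0.25 (33.2 ± 1.34 to 28.0 ± 0.758 CPM, SD, n = 3 each). The call on FLVCR1 was lost in 3 of 12 fits that left out 1 library (edgeR adjusted p up to 0.0806, without Hemin replicate 3). BACH1 was at 37.4 ± 0.740 and 42.6 ± 6.88 CPM (SD, n = 3 each) and did not pass the test (edgeR adjusted p = 0.443), whereas without hemin it rose by 1.08. Of 12 iron genes 2 were called (16.7%, beside the same 6.8%), of which FTH1, the heavy chain of ferritin, rose by 0.24 and SLC11A2, an iron importer, fell by 0.27 on the log2 scale. The call on each was lost without DBIC+Hemin replicate 1 (edgeR adjusted p = 0.0541 and 0.0808), and that on SLC11A2 in 2 further fits. FTH1 shares 62.4% of its exon bases with BEST1 on the opposite strand, which was at 21.8 CPM where FTH1 was at 874 and 1035 CPM. FTL, the light chain, and TFRC, the transferrin receptor, had log2 fold changes of 0.13 and -0.07 and did not pass the test.

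Of 25 measured antioxidant targets of NRF2, 2 were called higher and 0 lower (8%, beside 6.8% of all genes tested), with a median log2 fold change of 0.06. SRXN1, which restores oxidised peroxiredoxins, stood at 124, 121 and 119 CPM in Hemin and at 141, 138 and 134 CPM in DBIC+Hemin, a rise of 0.18 beside -0.03 without hemin (difference 0.21, edgeR adjusted p = 0.00785). SRXN1 shares 85% of its exon bases with AL121758.1 on the same strand, which was at 0.484 CPM. GCLM, a subunit of the enzyme for glutathione synthesis, rose by 0.34 (edgeR adjusted p = 0.0381), a call lost in 8 of 12 fits that left out 1 library (adjusted p up to 0.133, without Hemin replicate 3) and with total counts as scaling (0.0553). NQO1, TXNRD1 and SLC7A11, further targets of NRF2, had log2 fold changes of 0.06, 0.16 and -0.00 and did not pass the test.

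**Figure D3:**
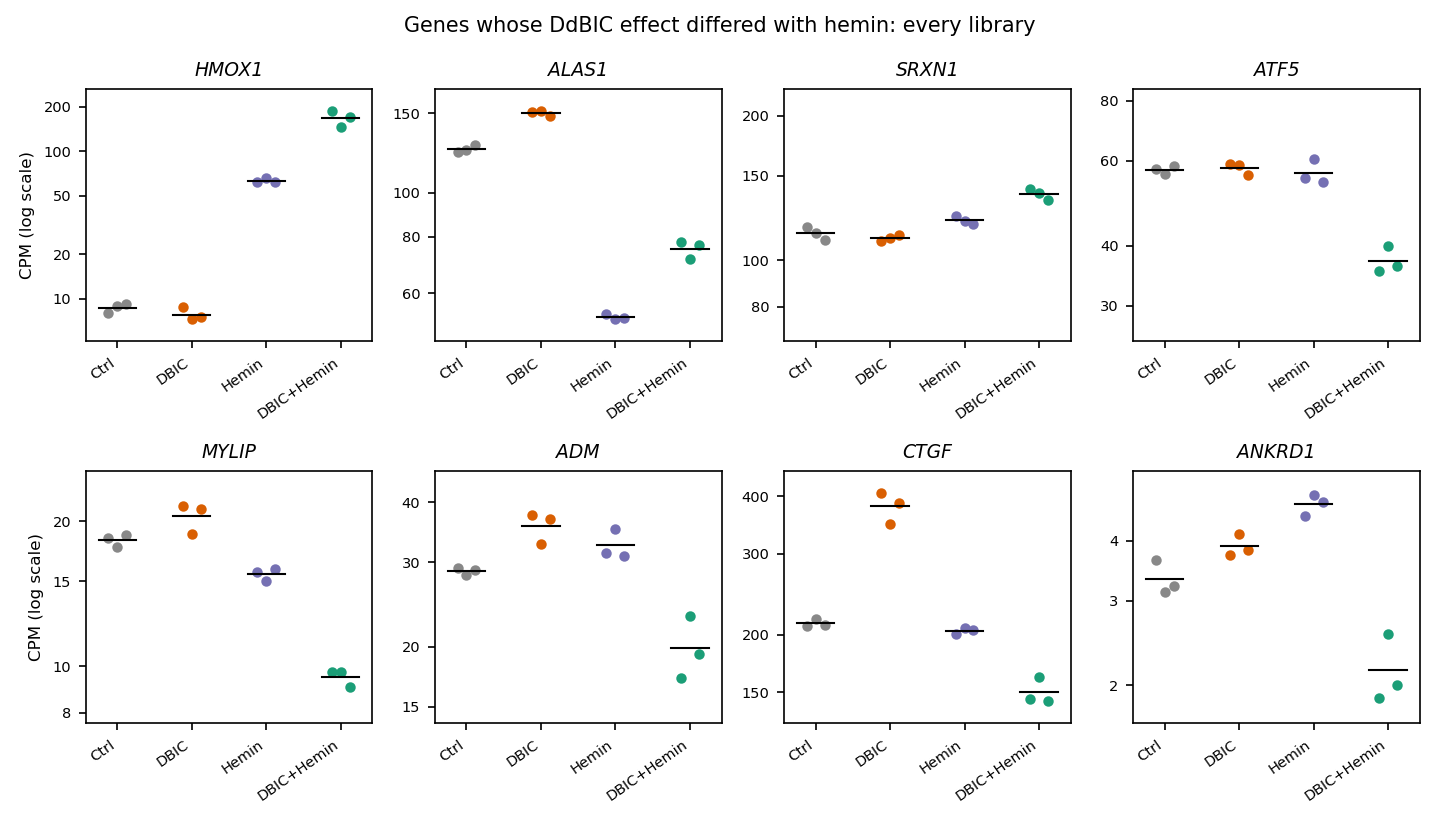
CPM on a log scale in each of the 12 libraries is shown for 8 genes whose DdBIC effect differed between cells with and without hemin, with black lines for group means. HMOX1, ALAS1 and SRXN1 lie higher in DBIC+Hemin than in Hemin, while ATF5, MYLIP, ADM, CTGF and ANKRD1 lie lower in DBIC+Hemin than in every other group.

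Under the same limits on level and overlap, PNPLA3 had the largest fall with hemin. PNPLA3, a lipase of lipid droplets (chromosome 22, 43923739 to 43964488), stood at 8.45, 9.30 and 10.1 CPM in Hemin and at 4.45, 4.13 and 4.24 CPM in DBIC+Hemin. Its log2 fold change was -1.12 (SE of 0.10, edgeR adjusted p = 6.55e-05), or 54.0% lower, beside -0.78 without hemin, and the difference was not called (edgeR adjusted p = 0.125). PNPLA3 shares 4.58% of its exon bases with SAMM50 on the same strand, which was at 66.5 CPM. Cholesterol genes gave 11 called lower and 0 higher of 24 measured (45.8%, beside 3.09% of all genes tested called lower), and 23 of the 24 had a negative log2 fold change, with a median of -0.23. Without hemin 11 were lower and 4 higher, with a median of -0.20. In that comparison 2451 of all 14287 genes tested were called lower and 2859 higher.

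MSMO1, a sterol demethylase of cholesterol synthesis, stood at 16.2, 15.4 and 18.9 CPM in Hemin and at 9.24, 7.68 and 8.46 CPM in DBIC+Hemin. The log2 fold change was -0.99 (SE of 0.10, edgeR adjusted p = 0.000189), or 49.7% lower. MSMO1 was at 11.5 ± 0.0926 CPM in Ctrl and 10.2 ± 1.03 CPM in DBIC (SD, n = 3 each), a change of -0.17 that did not pass the test, and the difference of -0.82 was called (edgeR adjusted p = 0.0023). STARD4, a carrier of cholesterol between membranes, stood at 23.5, 29.2 and 23.1 CPM in Hemin and at 13.8, 13.1 and 13.2 CPM in DBIC+Hemin, a log2 fold change of -0.92. It rose without hemin, from 16.8 ± 0.318 to 22.1 ± 1.54 CPM (SD, n = 3 each), by 0.39, and the difference of -1.31 was called (edgeR adjusted p = 3.96e-05). Both genes were also higher in Hemin than in Ctrl, by 0.55 and 0.59 (edgeR adjusted p = 0.00995 and 0.00358), a comparison that shares the Hemin libraries with the falls given here. So were SQLE (0.19), MVK (0.53), SCD (0.23), LPIN1 (0.35), NUAK1 (0.23) and ANKRD1 (0.51), whose falls are given below (edgeR adjusted p up to 0.0442).

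SQLE, the squalene epoxidase, fell from 51.0, 50.2 and 48.9 CPM to 34.9, 34.1 and 36.3 CPM, a log2 fold change of -0.51 beside -0.20 without hemin (difference -0.31, edgeR adjusted p = 0.0057). MVK, the mevalonate kinase, and HSD17B7, of a later step, had log2 fold changes of -0.57 and -0.46, and their calls were lost in 1 fit without DBIC+Hemin replicate 1 (edgeR adjusted p = 0.0543) and in 2 fits (up to 0.0567, without Hemin replicate 1). The difference was called for 9 of the 24 genes, 8 of them toward a lower value with hemin, where it was called in 16.6% of all genes tested. INSIG1 and HMGCS1, further targets of SREBF2, went from 41.9 to 25.8 CPM and from 73.6 to 57.2 CPM on average without passing the test (edgeR adjusted p = 0.0806 and 0.372).

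Genes of fatty acid synthesis gave 8 called lower and 0 higher of 12 measured (66.7%, beside the same 3.09%), with a median log2 fold change of -0.25 with hemin and -0.31 without. SCD, the desaturase that makes oleate, stood at 599, 580 and 594 CPM in Hemin and at 400, 390 and 402 CPM in DBIC+Hemin, a log2 fold change of -0.57 (SE of 0.03, edgeR adjusted p = 7.22e-07) beside -0.67 without hemin. SREBF1, the gene of the factor that drives this group, went from 234 ± 3.12 to 170 ± 4.60 CPM (SD, n = 3 each), a log2 fold change of -0.46. FASN, the fatty acid synthase, and ACACA, the acetyl-CoA carboxylase, changed by -0.36 and -0.45 with hemin and by -0.37 and -0.32 without, and the difference was not called for either. LPIN1, a phosphatidate phosphatase, fell by 0.54 on the log2 scale with hemin (69.3 ± 2.35 to 47.8 ± 2.15 CPM, SD, n = 3 each), was not called without it (-0.09), and had a called difference of -0.45 (edgeR adjusted p = 0.00126). Of 16 genes of PPAR signalling and fatty acid oxidation, 4 were called higher and 0 lower (25%, beside 3.71% of all genes tested called higher), among them ANGPTL4, an inhibitor of lipoprotein lipase, by 1.04, PDK4, a brake on pyruvate dehydrogenase, by 0.49, and PLIN2, a coat protein of lipid droplets, by 0.20.

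**Figure D4:**
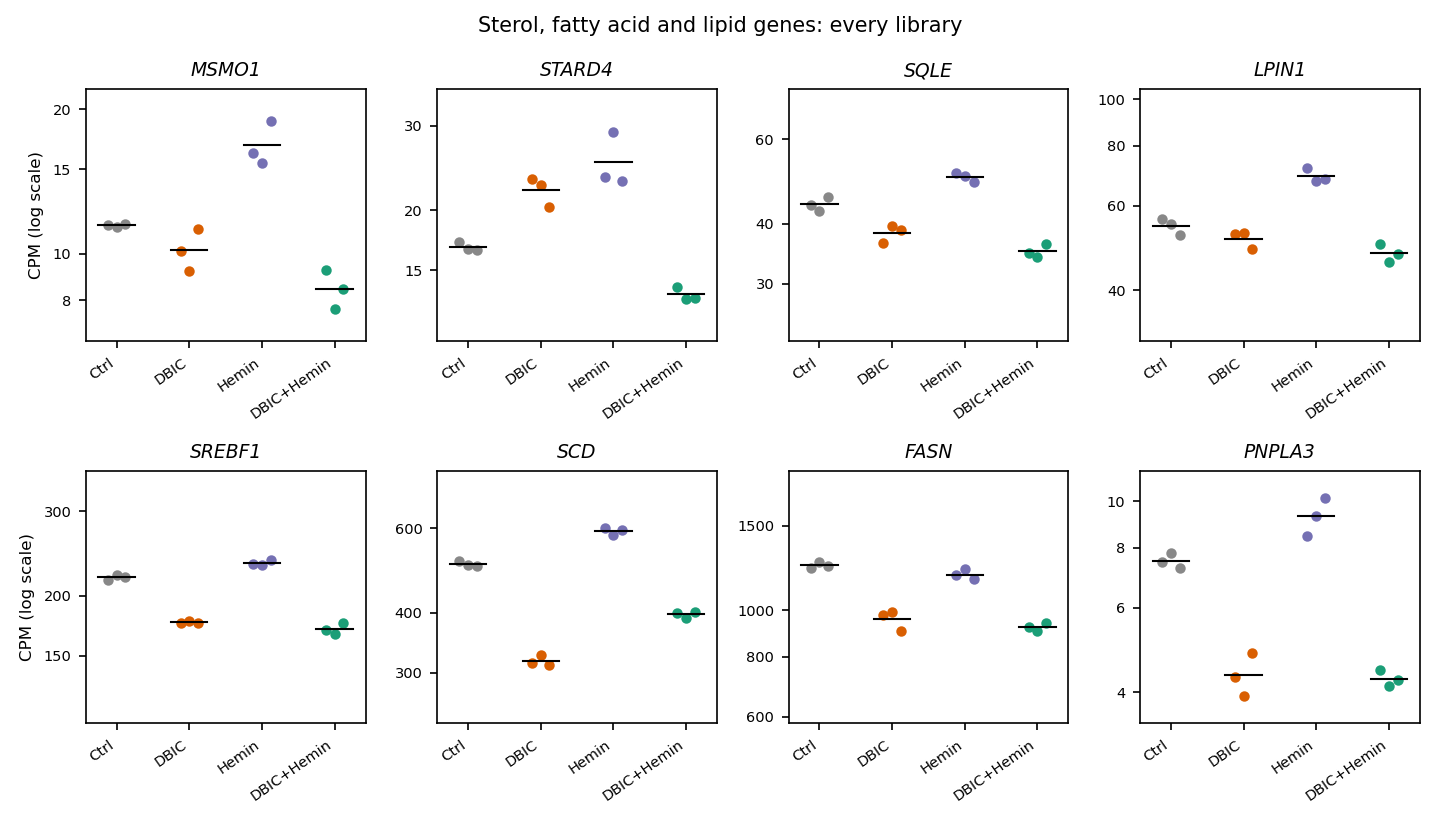
CPM on a log scale in each of the 12 libraries is shown for 8 genes of sterol, fatty acid and lipid metabolism, with black lines for group means. The DBIC+Hemin points lie below the Hemin points in each panel, and only for STARD4 is the DBIC mean above the Ctrl mean.

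Among the 12 largest falls under the same limits on level and overlap were further genes outside lipid metabolism. SMAD6, an inhibitor of BMP signalling, stood at 7.41, 7.72 and 7.95 CPM in Hemin and at 3.53, 4.08 and 4.33 CPM in DBIC+Hemin, a log2 fold change of -0.95 beside -0.88 without hemin. PCDH18 and PCDH7, protocadherins, changed by -0.98 and -0.73, SLITRK5, a synaptic adhesion protein, by -0.84, GJA5, a connexin, by -0.74, ADORA1, an adenosine receptor, by -0.69, and ASTE1 by -0.72 on the log2 scale. The difference from the effect without hemin was not called for any of these 7 genes. PCDH18 ranged from 2.78 to 5.14 CPM among the 3 DBIC+Hemin libraries and lost its call when only the 6 libraries compared were fitted (edgeR adjusted p = 0.0713). GJA5 lost its call without DBIC+Hemin replicate 1 (edgeR adjusted p = 0.0541), and ASTE1 lost it in 6 of 12 fits (adjusted p up to 0.104, without Hemin replicate 1) and with the replicate block (0.0538). ASTE1 shares 5.49% of its exon bases with ATP2C1 on the opposite strand, which was at 69.2 CPM.

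Of 889 called genes with no overlap and a mean of at least 5 CPM, 82 had a called difference with the larger effect in the presence of hemin. These were 37 of the 481 higher genes and 45 of the 408 lower ones. Besides HMOX1, MSMO1, STARD4 and ATF5, the largest were mostly falls. MYLIP, a ubiquitin ligase induced by sterols, stood at 15.7, 15.1 and 15.9 CPM in Hemin and at 9.73, 9.72 and 9.03 CPM in DBIC+Hemin, a log2 fold change of -0.71 beside 0.16 without hemin (difference -0.88, edgeR adjusted p = 7.25e-05). ADM, the gene of the vasodilator adrenomedullin, changed by -0.71 with hemin, from 32.5 ± 2.35 to 19.9 ± 3.01 CPM (SD, n = 3 each), and by 0.32 without (difference -1.02, edgeR adjusted p = 0.00047). FJX1, a secreted regulator of planar polarity, changed by -0.69 beside -0.12 (difference -0.57), LONRF1, a ring finger protein, by -0.58 beside -0.10 (difference -0.48), NUAK1, a kinase related to AMPK, by -0.58 beside -0.20 (difference -0.38), and NR2F2, an orphan nuclear receptor, by -0.55 beside -0.24 (difference -0.30). OSR2, a zinc finger factor, was lower by 0.62 and GJA3, a connexin, higher by 0.55 with hemin. Their calls were lost in 5 of 12 fits that left out 1 library (edgeR adjusted p up to 0.0968, without DBIC+Hemin replicate 1) and in 2 (up to 0.0560, without Hemin replicate 1).

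Targets of YAP and SRF split. Of 17 measured, 6 were called higher and 3 lower (52.9%, beside 6.8% of all genes tested), with a median log2 fold change of 0.04. CTGF, a secreted matrix protein and target of YAP, stood at 201, 207 and 205 CPM in Hemin and at 145, 162 and 144 CPM in DBIC+Hemin, a log2 fold change of -0.44, while without hemin it rose by 0.84 (difference -1.29, edgeR adjusted p = 2.01e-06). ANKRD1, another target of YAP, changed by -1.15 at a low level, from 4.76 ± 0.237 to 2.15 ± 0.363 CPM (SD, n = 3 each), and the difference of -1.37 was called. In the other direction, ACTG1, an actin, rose by 0.46, FHL2, a LIM protein, by 0.49 and TAGLN, which binds actin, by 0.45, and the difference from the effect without hemin was not called for these 3. ACTB, the other cytoplasmic actin, rose by 0.26 beside 0.04 without hemin, and FLNA, a filamin that crosslinks actin, by 0.13 beside -0.18, and both differences were called (0.22 and 0.31). The call on FLNA was lost without Hemin replicate 1 or 3 (edgeR adjusted p up to 0.0756) and with only the 6 libraries compared (0.0579). TAGLN shares 11.4% of its exon bases with PCSK7 on the opposite strand, which was at 78.3 CPM.

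Of 12 genes of succinate dehydrogenase and of succinyl-CoA metabolism, 1 was called higher and 0 lower with hemin (8.33%, beside 6.8% of all genes tested). It was OGDH, which makes succinyl-CoA, at 126 ± 7.64 CPM in Hemin and 149 ± 5.90 CPM in DBIC+Hemin (SD, n = 3 each), higher by 0.24 on the log2 scale (edgeR adjusted p = 0.0290) beside 0.05 without hemin. The call on OGDH was lost in 4 of 12 fits that left out 1 library (edgeR adjusted p up to 0.111, without Hemin replicate 3), with only the 6 libraries compared (0.0555) and with the replicate block (0.0608). SDHA, SDHB, SDHC and SDHD, the subunits of succinate dehydrogenase, had log2 fold changes of 0.09, 0.05, -0.01 and 0.06, and SUCLG1, of the enzyme that turns succinyl-CoA into succinate, of 0.03, and did not pass the test. Without hemin these 5 genes were called lower, by -0.13 to -0.27, and the difference was called for each, at 0.22 to 0.32. They were named for the pathway of DdBIC. Of all 14287 genes tested, 2451 were called lower without hemin, and the difference was called in 16.6%. OMA1, a protease of the inner membrane, and OPA1, a substrate of it, had log2 fold changes of -0.08 and 0.06 and did not pass it either. GSDMC and GZMB, which encode gasdermin C and granzyme B, were not tested, with 2 to 6 and 0 to 8 counts in each of the 6 libraries. Of the 13 genes of the mitochondrial genome, MT-ND6 and MT-ND5, subunits of complex I, were called lower (15.4%, beside 3.09% of all genes tested called lower). MT-ND6 went from 271 ± 24.3 to 175 ± 9.43 CPM (SD, n = 3 each), a log2 fold change of -0.63, and MT-ND5 changed by -0.41, a call lost in 5 of 12 fits (adjusted p up to 0.109, without DBIC+Hemin replicate 1).

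Several groups had no called member, which says little for the shorter lists, since 6.8% of all genes tested were called. They were 78 ribosomal protein genes (log2 fold changes of -0.17 to 0.58), 32 proteasome genes (-0.07 to 0.17), 18 mitochondrial proteases and chaperones (-0.08 to 0.18), 13 genes of MHC class I, 14 interferon genes, 19 genes of autophagy and lysosomes, 10 measured gasdermin and caspase genes, and 4 metallothionein and zinc genes. The last 4 were all called higher without hemin, as were 2859 of all 14287 genes tested. Among the rest, 22 mitosis genes gave 0 higher and 3 lower (13.6%), 24 replication genes 3 higher and 1 lower (16.7%), and 21 tRNA synthetase genes 1 higher and 1 lower (9.52%), the last close to the 6.8% of all genes tested.

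**Figure D5:**
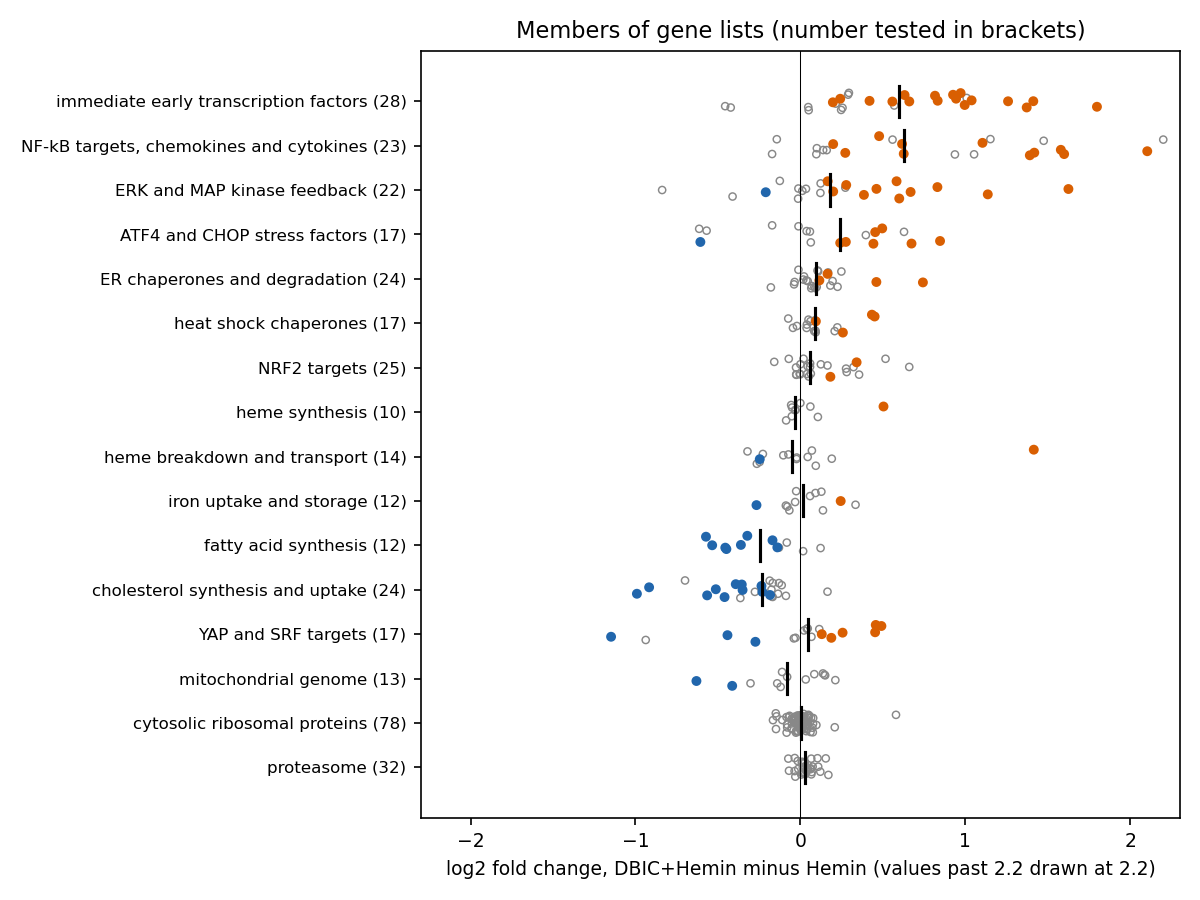
The log2 fold change of DBIC+Hemin minus Hemin is shown for the tested members of 16 gene lists, with filled points for called genes, open points for the others and black bars for the list medians. The immediate early and NF-κB lists are shifted to the right, with medians of 0.60 and 0.63, and the fatty acid and cholesterol lists to the left, with medians of -0.25 and -0.23.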

How the data were processed

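Counts of reads per gene in 12 A375 libraries were used as deposited by the authors, whose processing notes name Trim Galore, Subread, featureCounts and hg38 without versions or roles. Strand use in counting is not given in the sources used here. The deposited TPM and FPKM columns of the authors were read only to identify their units, and no value of them is printed. The columns of 3 libraries per group were matched to the labels by name.

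Genes were filtered with filterByExpr, scaled by TMM and tested with edgeR 4.0.16 (R 4.3.3, limma 3.58.1) by the quasi-likelihood test with robust dispersion, 1 mean per group over all 12 libraries, which gives 8 residual degrees of freedom. Contrasts were DBIC+Hemin minus Hemin, DBIC minus Ctrl, their difference (interaction) and Hemin minus Ctrl. P-values were adjusted by Benjamini-Hochberg over 14287 genes, with a threshold of 0.05, and the code was tested on simulated data. Fold changes are on the log2 scale of TMM-scaled counts, and levels are CPM on TMM-scaled library sizes. A count of 3 corresponds to 0.0676 to 0.0790 CPM, and such limits cover counting error only.

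Named genes were the 12 largest rises and falls among called genes whose groups did not overlap and whose mean reached 5 CPM, the 12 largest with a called interaction and a larger effect with hemin, up to 5 called members of each of 38 gene lists, and genes named for the pathway of DdBIC or for hemin. Part of these are named in the text. CCL2, NFKBIE, IL1A, IL1B, DUSP6, HSPA5, CHAC1, TRIB3, NQO1, TXNRD1, SLC7A11, INSIG1, HMGCS1, ACTB, FLNA and MT2A fell outside the rule and were chosen after their values were seen. The comparison, lists and tests were chosen with earlier results of these data known. Exon overlaps were read from GENCODE v29, which held 14272 of the 14287 gene IDs, and promoters from RefSeq. Alternatives were other scalings, DESeq2 1.42.0, other filters, only the groups compared, a replicate block and leaving out each library.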

Additional observations from a re-analysis of the deposited data

Results flagged for a closer look

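For 71 of the 111 tested genes named here, the log2 effect of DdBIC with hemin differed from that without hemin by the interaction test (edgeR's quasi-likelihood test, adjusted p under 0.05). The difference was positive, with the effect more upward in the presence of hemin, in 12 genes and negative in 59. Over all genes tested it was called in 16.6% (914 positive and 1462 negative), and part of the named genes were chosen for a called difference or after their values were seen, so their share is a description. The values below are these differences on the log2 scale, and their causes were not tested. For single genes they were not rerun with other scalings or without single libraries. With upper-quartile factors the difference over all genes moved by a median of 0.053, and the called differences were 1497 positive and 1203 negative.

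The most negative differences were in CXCL2 (-5.77), EGR1 (-5.47), EGR2 (-5.29), TNFAIP3 (-4.60), JUN (-4.35), FOS (-4.15) and CXCL8 (-4.09), which are immediate early or NF-κB genes. Of these groups and related signalling genes, BIRC3 was at -3.67, IL6 at -3.16, ATF3 at -3.01, NR4A1 at -1.97, CCL2 at -1.82, CREB5 at -1.74, IL1A at -1.54, NFKBIE at -1.53, IL1B at -1.43, PLK3, a stress kinase, at -1.42 and IL11 at -1.37. Among MAP kinase feedback genes and signalling enzymes, DUSP8 was at -3.11, DUSP6 at -1.80, DUSP5 at -1.76, AREG at -1.58, DUSP10 at -1.27, ERRFI1 at -1.06 and PTPRH at -0.56.

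In the stress groups, DDIT3 was at -2.88, HERPUD1 at -1.81, SESN2 at -1.80, PPP1R15A at -1.79, DNAJB9 at -1.70, DDIT4 at -1.66, CHAC1 at -1.54, HSPA5 at -1.42, EIF2AK3 at -0.77, ATF5 at -0.62, MANF at -0.55 and ATF4 at -0.40. In lipid metabolism, STARD4 was at -1.31, INSIG1 at -1.04, ANGPTL4 at -1.03, HMGCS1 at -0.97, MYLIP at -0.88, MSMO1 at -0.82, LPIN1 at -0.45, SQLE at -0.31, SREBF1 at -0.15 and PLIN2 at -0.14. ANKRD1 (-1.37), CTGF (-1.29), ADM (-1.02), OSR2 (-0.97), MT2A (-0.95), BACH1 (-0.90), FJX1 (-0.57), LONRF1 (-0.48), NUAK1 (-0.38), AHR (-0.38), NR2F2 (-0.30) and FLVCR1 (-0.28) made up the rest of the negative differences.

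The positive differences were led by HMOX1 (1.57), followed by GJA3 (0.50), SDHD (0.32), FLNA (0.31), SDHC (0.26), SDHB (0.24), SUCLG1 (0.24), ALAS1 (0.24), NQO1 (0.24), SDHA (0.22), ACTB (0.22) and SRXN1 (0.21). In SDHA, SDHB, SDHC, SDHD, SUCLG1 and NQO1 the effect with hemin itself did not pass the test. HSP90AA1 also had a called positive difference (0.31) and is not counted among the 111 genes.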

How the results depend on the processing

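The count of 971 genes changed by DdBIC with hemin was 944 with upper-quartile factors, 996 with total counts, 1288 with DESeq2, 881 with no filter, 1001 with at least 10 counts in every library and 569 with only the groups compared, of which 526 were among the 971. With a replicate block it was 776 (750 shared), the interaction 2078 and the effect without hemin 5084. Same-numbered Hemin and DBIC+Hemin libraries correlated at 0.0325 to 0.0345, each Hemin library best with its own number. Over all pairs of groups the range was -0.0765 to 0.0550. These low values do not settle whether the numbers pair the samples, and the labels do not say. Leaving out 1 library at a time gave 612 to 934 genes with hemin, 1952 to 2313 for the interaction and 4519 to 5416 without hemin. In the other settings run, the interaction count was 2205 to 2700 and that without hemin 4944 to 5782. Over these settings the median of all genes moved by at most 0.0612 (log2).

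None of the 85 named genes called with hemin changed sign. In the 7 other settings 569 of 594 values stayed called and 25 in 17 genes did not, and in the fits without 1 library 926 of 1020 stayed called and 94 in 23 genes did not. Among the 26 uncalled genes, EIF2S1 changed sign with upper-quartile factors (-0.00279) and total counts (-0.016) and SLC7A11 with DESeq2 (0.00148). Without 1 library, EIF2S1 ranged from -0.0299 to 0.0490, SDHC from -0.0334 to 0.0182, OMA1 from -0.152 to 0.0197, SDHD from -0.0255 to 0.117, SLC7A11 from -0.0394 to 0.0325, TRIB3 from -0.123 to 0.260, IL1A from -0.0321 to 0.287, IL1B from -0.0207 to 0.197 and MT2A from -0.0425 to 0.0175. GCLM, SLC11A2, MVK, ATF6 and MANF lost their calls with only the groups compared (adjusted p = 0.0956, 0.0628, 0.0838, 0.125 and 0.0590), and ATF3 and FOS with no filter (0.0710 and 0.0526). HSPA5 and CHAC1 were called with only the groups compared and INSIG1 with DESeq2. Leaving out 1 library, HSPA5 was called in 2 of 12 fits and CHAC1, INSIG1 and FTL in 1 each. The causes were not tested. Low genes such as CXCL2, IL6 and EGR2 rest on few counts, and 3 libraries per group limit the precision.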

Other observations

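Several further groups, picked here after their values were seen, are given as values. Their members printed here met the rule for named genes, apart from MT2A, which fell outside it. In metallothionein and zinc genes, MT2A, which binds zinc and copper, was at 182 ± 1.30 CPM in Hemin and 181 ± 7.80 CPM in DBIC+Hemin (SD, n = 3 each), a log2 fold change of -0.01 beside 0.94 without hemin. In 20 targets of p53, 2 were called higher and 1 lower (15%, beside 6.8% of all genes tested), with PLK3 at 28.9 ± 1.39 and 41.4 ± 1.5 CPM (SD, n = 3 each). AHR, the aryl hydrocarbon receptor, was higher in DBIC+Hemin by 0.41 on the log2 scale (61.6 ± 3.16 to 81.9 ± 1.60 CPM, SD, n = 3 each), beside 0.79 without hemin. It shares 29.4% of its exon bases with another annotated gene on the same strand.

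Of 10 genes of the melanocyte lineage, 1 was called higher and 2 lower with hemin (30%, beside 6.8% of all genes tested). SOX9, a factor of the neural crest, was at 1.40 ± 0.262 and 2.31 ± 0.0695 CPM, TFAP2A, another such factor, at 16.7 ± 2.04 and 10.8 ± 2.35 CPM, and S100B, a calcium-binding protein, at 11.8 ± 0.950 and 8.55 ± 0.555 CPM (SD, n = 3 each). The calls on TFAP2A and S100B were each lost in 4 of 12 fits that left out 1 library (edgeR adjusted p up to 0.110 and 0.0941, without DBIC+Hemin replicate 1). With only the 6 libraries compared, the calls on SOX9 and TFAP2A were lost (edgeR adjusted p = 0.0733 and 0.102), and that on TFAP2A also with the replicate block (0.0628).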
